A study of Mus musculus with 6 samples.

Results

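The dense-core granule genes examined here encode the granins and other soluble proteins of neuroendocrine secretory granules and the enzymes that mature prohormones inside them. They were taken as every probe set whose annotation names exactly 1 of 10 symbols, Chga, Chgb, Scg2, Scg3, Scg5, Resp18, Pcsk1, Pcsk2, Cpe and Pam. The rule found 10 probe sets for 9 genes, among 45101 probe sets and 18193 genes in all. No listed probe set carried the symbol Pcsk2, so it was not analysed here. The cells came from a mouse model of small cell lung cancer, which is a pulmonary neuroendocrine carcinoma, in animals of a mixed C57BL/6;129Sv/J background. Tumours followed infection with Adeno-Cre, an adenovirus that delivers Cre recombinase, in Rb/p53/p130 mutant mice, and were harvested 6 to 7 months later without treatment. A single-cell suspension, labelled on the surface for CD24, CD44 and EpCAM, was sorted into a tumour-propagating (TPC) and a non-TPC fraction. Both fractions carry the same triple knockout label, and each of mice 1127, 920 and 0107 gave 1 array per fraction, so 6 arrays were compared, 3 per fraction. The sources used here do not give the gates, the promoter that drove Cre or whether several tumours of a mouse were pooled.

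Neuroendocrine cells store peptide hormones and amines in dense-core granules and release them on stimulation. Granins aggregate in the trans-Golgi network and help to form the granule core, and chromogranin A is a routine histological marker of neuroendocrine tumours. Within the granule, prohormone convertases cut precursors after pairs of basic residues, carboxypeptidase E trims the exposed basic residues, and peptidylglycine alpha-amidating monooxygenase amidates the C terminus. The comparison of TPC with non-TPC asks whether this secretory equipment differs between the fractions of the same tumours.

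None of the 9 measured granule genes differed between the fractions past the test. Values are levels from RMA (robust multi-array average) on a log2 scale, on which 1 unit is a doubling, and each difference is TPC minus non-TPC. With limma, a linear model whose variances are moderated across all genes, 0 of 9 members had an adjusted p under 0.05, where 0.0605% of all genes passed, and 0 of 9 had an unadjusted p under 0.05, where 6.48% of all genes did. A fit with mouse as a replicate block, which compares both fractions within an animal, also called 0 of 9 (0.0715% of all genes, and 0 of 9 members against 9.85% at an unadjusted p under 0.05), and a fit with mouse as a random block called 0 of 9 (0.214%). Of the 10 member probe sets, 0 passed in a fit over all probe sets, where 0.0244% passed. The median difference of the members was 0.02, against 0.04 over all genes. The mouse medians were -0.19 in mouse 1127, -0.11 in mouse 920 and 0.52 in mouse 0107, so mouse 0107 went the other way from the other 2 mice.

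**Figure D1:**
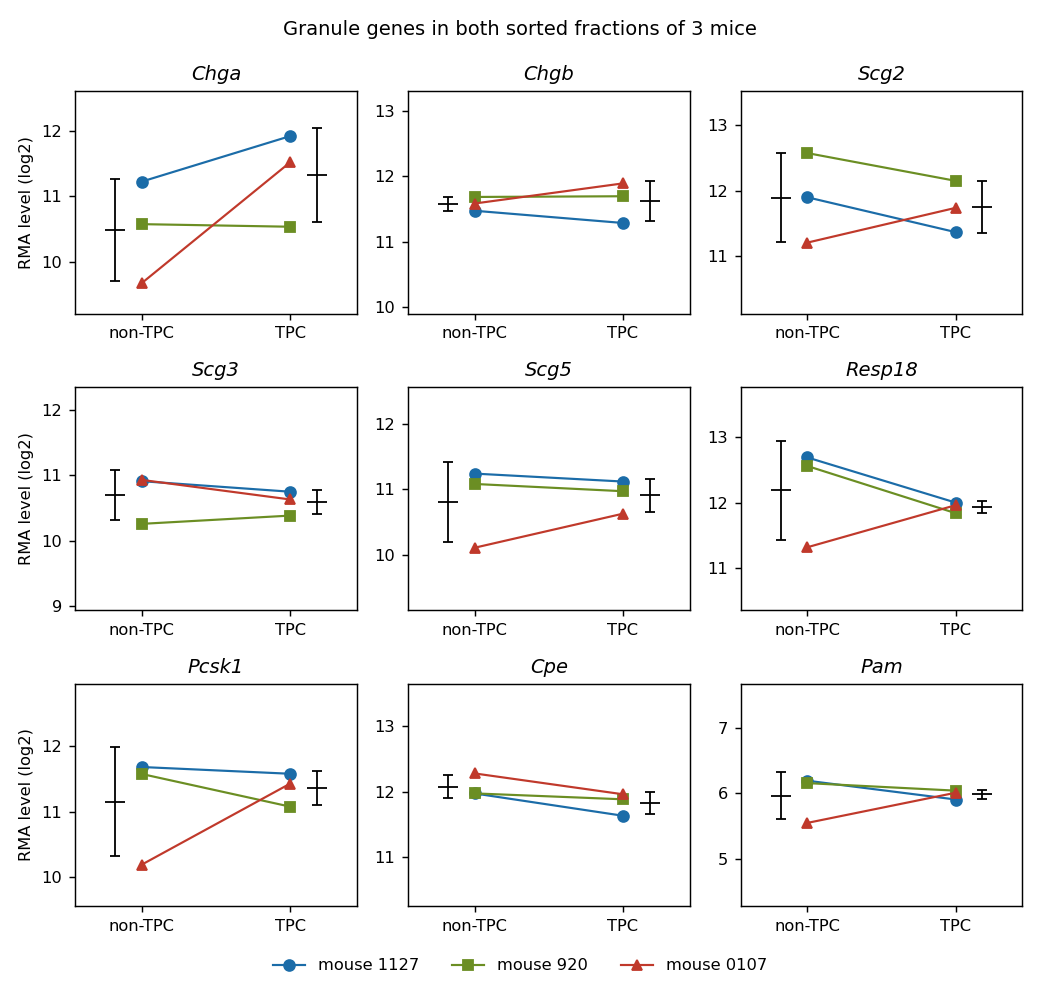
RMA levels (log2) of the 9 measured granule genes in the non-TPC and TPC arrays, 1 panel per gene, with a line joining both fractions of a mouse and black bars for the mean ± SD of 3 arrays. All panels span the same range of log2 units, and the red line of mouse 0107 climbs towards TPC in 7 panels while most lines of the other mice are flat or slope down.

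The mean level of 12 measured neuroendocrine markers ran from 8.51 to 9.01 in TPC and from 8.31 to 8.69 in non-TPC arrays, with the highest non-TPC value in mouse 0107. That mean includes Neurod1 and Stmn2, whose outlying values in this array are given below. For 5 of the 12 markers, Ddc, Foxa2, Cplx2, Syp and Eno2, this same array held the lowest of the 6 values (20.9% of all genes, 30.7% of those above the median level). Ncam1, like Neurod1 and Stmn2, was highest in it, at 10.65 against 9.70 to 10.15 in the other arrays. Uchl1 was also lower in TPC than in non-TPC of mouse 0107, by -0.58. Of the 12 markers 0 passed the test, where 0.0605% of all genes did. In TPC of all 3 mice 6 were higher and 0 lower (19.7% and 13.8% of all genes), and the median difference was 0.42. Ddc, a decarboxylase of amine synthesis, was between 12.22 and 13.37 in all arrays. The non-TPC array of mouse 0107 stood apart from the others. Its mean correlation with the other arrays was 0.955, against 0.967 to 0.975. It held the lowest value of the 6 arrays for 30.7% of genes above the median level, against 9.91% to 19.1% in the other arrays. Over all genes its share was 20.9%, between those of the non-TPC arrays of mice 920 (18.5%) and 1127 (24.9%). It also held the highest value for 28.2% of all genes, against 9.86% to 19.0% in the other arrays. Among the members it was the highest array for 2, Scg3 and Cpe. Neurod1, a transcription factor of neuroendocrine and neuronal cells, was at 9.70 in this array and between 3.88 and 5.11 in the other arrays. The neuronal microtubule gene Stmn2, also on the neuroendocrine list, was at 7.82 against 5.24 to 5.67. Lists of markers of other cells had higher mean levels in the non-TPC arrays. The mean level of 8 fibroblast markers ran from 5.78 to 5.97 in TPC and from 6.99 to 8.94 in non-TPC arrays, that of 8 leukocyte markers from 6.92 to 7.79 and from 8.60 to 9.11, that of 6 alveolar type 2 markers from 7.92 to 8.06 and from 9.28 to 9.94, that of 5 club cell markers from 9.48 to 10.77 and from 10.69 to 12.73, and that of 6 endothelial markers from 5.35 to 5.43 and from 5.52 to 7.35. In these lists 0 of 8, 1 of 8, 2 of 6, 0 of 5 and 0 of 6 members passed the test (0.0605% of all genes), all of them lower in TPC. Alveolar type 1 markers (5 measured, 6.95 to 7.29 and 8.25 to 9.37) and mesothelial markers (5 measured, 4.31 to 4.64 and 5.86 to 6.02) had ranges that did not overlap, and 5 smooth muscle markers ran from 5.79 to 5.84 in TPC and from 6.00 to 6.75 in non-TPC arrays. In these 3 lists 0 of 5, 1 of 5 and 0 of 5 members passed, the 1 of them lower in TPC. The 5 measured markers of neurons and glia ran from 6.87 to 6.97 in TPC and from 6.47 to 7.01 in non-TPC arrays. The part of these cells and of the single array in the granule gene values was not tested. In sorted bulk RNA, fewer cells of a type and less RNA per cell cannot be told apart.

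The granins came first. Chga encodes chromogranin A, the founding granin. It was at 11.91, 10.53 and 11.52 in the TPC arrays of mice 1127, 920 and 0107 and at 11.22, 10.57 and 9.67 in their non-TPC arrays. The groups overlapped: mouse 920 had nearly equal levels in both fractions, and the lowest array was the non-TPC array of mouse 0107. Chga had the largest mean difference of the 9 members, 0.83 (SE 0.49, 95% interval -0.33 to 1.99, limma adjusted p = 0.873), with values of 0.69, -0.04 and 1.84 in mice 1127, 920 and 0107. Fitted with mouse as a replicate block, Chga had an SE of 0.36 and a limma adjusted p of 0.545. Without mouse 0107 the difference was 0.33 (adjusted p = 0.836), and without its non-TPC array alone it was 0.42 (0.717).

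Chgb encodes chromogranin B, which shares the acidic, dibasic-rich make-up of chromogranin A. Its levels were 11.28, 11.69 and 11.89 in the TPC arrays of mice 1127, 920 and 0107 and 11.47, 11.68 and 11.58 in the non-TPC arrays. All 6 arrays thus lay close together, with the non-TPC arrays inside the range of the TPC arrays. The difference was 0.04 (SE 0.18, 95% interval -0.40 to 0.48, limma adjusted p = 0.974), and it was -0.09 without mouse 0107.

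Scg2 encodes secretogranin II, the precursor of the peptide secretoneurin. It was at 11.37, 12.15 and 11.74 in TPC of mice 1127, 920 and 0107 and at 11.90, 12.57 and 11.21 in non-TPC. In mice 1127 and 920 the non-TPC array was the higher one, and in mouse 0107 it was the lower one. The mouse differences of -0.53, -0.42 and 0.53 averaged to -0.14 (SE 0.37, 95% interval -1.03 to 0.74, limma adjusted p = 0.963), and without mouse 0107 the Scg2 difference was -0.48 (adjusted p = 0.697).

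Scg3 encodes secretogranin III, which tethers chromogranin A to the cholesterol-rich granule membrane. Its levels of 10.75, 10.38 and 10.63 in TPC and 10.91, 10.26 and 10.93 in non-TPC of mice 1127, 920 and 0107 overlapped. Scg3 and Cpe were the only members at a lower level in the TPC array than in the non-TPC array of mouse 0107, Scg3 by -0.30. The mean Scg3 difference was -0.11 (SE 0.22, 95% interval -0.64 to 0.42, limma adjusted p = 0.948).

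Of the other soluble granule proteins, Resp18 encodes regulated endocrine-specific protein 18, a granule protein of endocrine and neuronal cells. Its TPC arrays were nearly equal, at 12.00, 11.84 and 11.96 in mice 1127, 920 and 0107, while its non-TPC arrays were at 12.69, 12.56 and 11.32. The TPC values thus lay between the high non-TPC arrays of mice 1127 and 920 and the low one of mouse 0107. The SD was 0.08 in TPC and 0.76 in non-TPC (n = 3 each). The difference was -0.26 (SE 0.36, 95% interval -1.11 to 0.60, limma adjusted p = 0.933), made of -0.69, -0.72 and 0.64 in mice 1127, 920 and 0107. Without mouse 0107 Resp18 differed by -0.70 (SE 0.15, limma adjusted p = 0.309), and without only the non-TPC array of that mouse by -0.69 (SE 0.13, adjusted p = 0.134). Neither value passed, and the latter was the smallest adjusted p of any member under any alternative.

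Scg5 encodes 7B2, the chaperone and inhibitor of prohormone convertase 2. It was at 11.12, 10.97 and 10.63 in TPC of mice 1127, 920 and 0107 and at 11.24, 11.08 and 10.11 in non-TPC. Both fractions of mouse 0107 were the lowest, and its non-TPC array was lower than its TPC array. Scg5 differed by 0.10 (SE 0.32, 95% interval -0.66 to 0.85, limma adjusted p = 0.971), and by -0.12 without mouse 0107.

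Among the processing enzymes, Pcsk1, which encodes prohormone convertase 1/3, repeated the pattern of Resp18 with a larger value in mouse 0107. Pcsk1 was at 11.58, 11.08 and 11.43 in TPC of mice 1127, 920 and 0107 and at 11.69, 11.58 and 10.20 in non-TPC. The non-TPC array of mouse 0107 lay below all others. The mouse differences were -0.10, -0.50 and 1.24, with a mean of 0.21 (SE 0.41, 95% interval -0.76 to 1.18, limma adjusted p = 0.945). Without mouse 0107 the sign turned, to -0.30 (adjusted p = 0.693).

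Cpe encodes carboxypeptidase E, which also acts as a sorting receptor for prohormones. It was at 11.63, 11.89 and 11.96 in TPC and 11.97, 11.98 and 12.28 in non-TPC of mice 1127, 920 and 0107. Cpe was the single member with a lower TPC level in all 3 mice, by -0.34, -0.09 and -0.32, where 13.8% of all genes were lower in all 3 and 33.5% had the same sign in all 3. It was also the single member whose groups did not overlap, although the highest TPC and the lowest non-TPC array were close, and 12.6% of all genes had groups that did not overlap. The difference was -0.25 (SE 0.16, 95% interval -0.63 to 0.13, limma adjusted p = 0.877). A second, dim Cpe probe set lay between 5.49 and 6.27 and differed by 0.06 (SE 0.22, limma adjusted p = 0.985 over all probe sets), with overlapping groups.

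Pam encodes the amidating enzyme, which is also made outside endocrine cells. Its only probe set was dim, the single member below the median level of all genes, 6.91, so its differences rest on weak signal. Pam was at 5.90, 6.04 and 6.01 in TPC of mice 1127, 920 and 0107 and at 6.19, 6.15 and 5.55 in non-TPC. As in Resp18, the TPC arrays lay between the non-TPC arrays of mouse 0107 and of the other mice. Pam differed by 0.02 (SE 0.20, 95% interval -0.46 to 0.50, limma adjusted p = 0.989), and by -0.20 without mouse 0107.

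**Figure D2:**
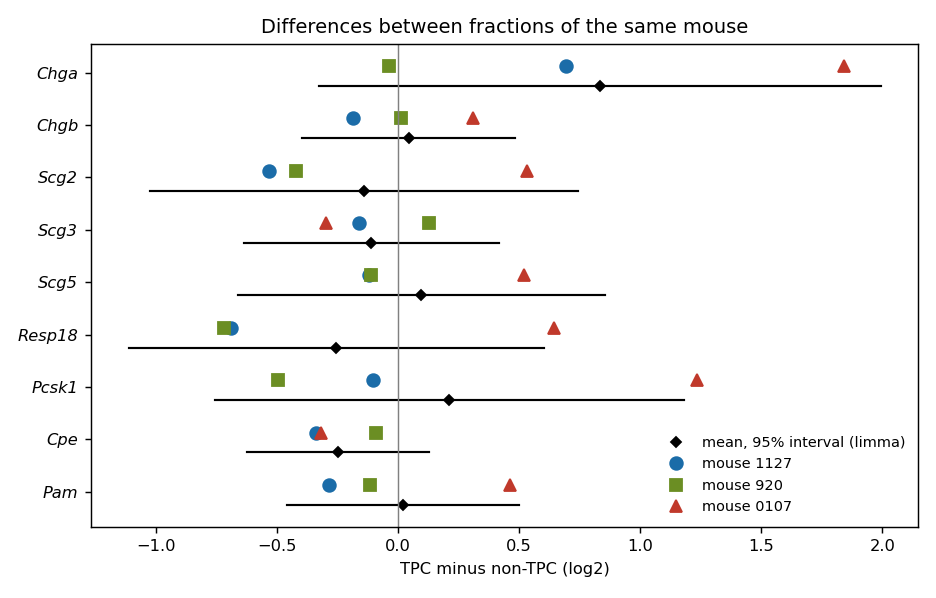
TPC minus non-TPC (log2) of the 9 measured granule genes in mice 1127, 920 and 0107, with black diamonds and bars for the limma mean and its 95% interval. That fit had fraction as its only term, so the intervals do not use the pairing by mouse. Every interval includes 0, and the triangle of mouse 0107 is the rightmost point for 7 genes, all but Scg3 and Cpe.

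Counted over the members, the split between mice was as follows. In mouse 0107 7 of 9 members were higher in TPC, against 46.3% of all genes, while 1 of 9 was higher in mouse 1127 (59.2% of all genes) and 2 of 9 in mouse 920 (57.8%). Scg2, Scg5, Resp18, Pcsk1 and Pam, 5 of 9, were lower in TPC of mice 1127 and 920 and higher in mouse 0107, a pattern held by 10.1% of all genes and 13% of genes above the median level. For 6 of 9 members the lowest of the 6 arrays was the non-TPC array of mouse 0107 (20.9% of all genes, and 30.7% of those above the median level). The SD was larger among non-TPC than among TPC arrays for 8 of 9 members, all but Chgb, and for 67.1% of all genes. With 1 array per fraction and mouse, a difference between mice was not tested, and the members share the same 6 arrays.

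**Figure D3:**
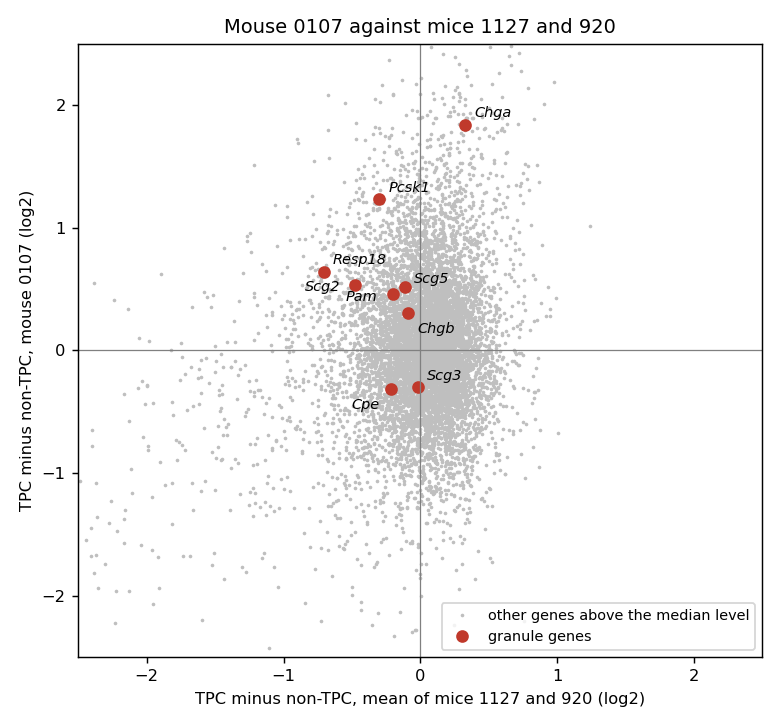
TPC minus non-TPC (log2) in mouse 0107 plotted against the mean of mice 1127 and 920, with the 9 granule genes in red and 9088 other genes above the median level in grey (89 of these lie outside the axes). The 5 genes lower in both other mice and higher in mouse 0107 sit in the upper left quadrant with Chgb, while Scg3 and Cpe lie below 0.

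Pcsk1, Scg2 and Chgb share a sequence motif in the bases before their start sites. The RefSeq promoter table (GRCm38.p6) held windows for 9 of the 10 symbols, all but Cpe, and the 250 bases before each start were searched on both strands. The letters TGACGTCA, the palindromic cAMP response element bound by CREB family factors, occurred in Scg2, Chgb and Pcsk1, and in 1.55% of all 32851 promoter windows of that length. Their first base lay at -68, -72 and -78 from the start. The shorter core TGACGT, which each TGACGTCA contains on both strands, occurred in 5 of 9 genes, these 3 with Chga and Scg5, and in 6.47% of all windows. It was searched after the longer one had been seen. The E-box CAGCTG occurred in Chga, Resp18, Pam and Pcsk2 (13% of windows) and CACCTG in Chga, Chgb, Scg2 and Scg5 (17.2%). A gene was counted if any window under its symbol held the letters, whereas the percentages are shares of single windows, so the units differ. The 5 genes with the core are shown. Scg2, Pcsk1 and Scg5 are among the 5 genes with the opposite sign in mouse 0107, as are Resp18 and Pam, which lack the core. Chgb, with TGACGTCA, had the smallest range of the members over the 6 arrays, 0.60. A link between the motif and the levels was not tested. Each line gives 120 bases of the gene's strand from 5′ to 3′, and capitals mark TGACGTCA or TGACGT. The stretches are chr1:79440031-79440150 on the minus strand, chr2:132781514-132781633 and chr13:75089723-75089842 on the plus strand, chr12:102554821-102554940 on the plus strand and chr2:113829203-113829322 on the minus strand.
Scg2: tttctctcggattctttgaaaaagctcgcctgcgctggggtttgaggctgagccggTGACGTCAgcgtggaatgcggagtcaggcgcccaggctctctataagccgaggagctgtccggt
Chgb: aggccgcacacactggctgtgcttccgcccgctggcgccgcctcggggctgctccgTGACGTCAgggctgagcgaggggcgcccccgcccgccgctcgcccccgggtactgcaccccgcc
Pcsk1: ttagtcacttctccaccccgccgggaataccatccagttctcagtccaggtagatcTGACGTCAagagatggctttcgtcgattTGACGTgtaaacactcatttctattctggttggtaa
Chga: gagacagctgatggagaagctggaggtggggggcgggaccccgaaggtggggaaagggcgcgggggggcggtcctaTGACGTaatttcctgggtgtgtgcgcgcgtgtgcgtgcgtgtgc
Scg5: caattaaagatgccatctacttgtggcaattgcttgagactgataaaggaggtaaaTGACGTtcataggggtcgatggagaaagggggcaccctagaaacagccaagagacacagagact
Pcsk1 holds a second core downstream of its TGACGTCA, with its first base at -50. Chga holds the core alone, with its first base at -44, and Scg5 at -175. These matches describe letters in the reference and no binding was measured.

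Other genes of the granule pathway were grouped by role, and 0 of 63 measured passed the test in either direction. At an unadjusted p under 0.05 in limma there were 6, 4 of them lower and 2 higher in TPC, where 4.35% of all genes were lower and 2.12% higher at that p. The count of genes past the adjusted threshold was also 0 with the mouse as a replicate block. Their median difference was 0.09.

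The machinery that forms, moves and releases granules had 26 measured genes, 3 of them higher and 3 lower in TPC of all 3 mice (19.7% and 13.8% of all genes). Its median differences were -0.04 in mouse 1127, -0.05 in mouse 920 and 0.38 in mouse 0107, which again stood apart from the other mice. In mouse 0107 21 of 26 were higher in TPC, where 49.5% of genes above the median level were, and for 16 of 26 the non-TPC array of that mouse was the lowest (30.7% of genes above the median level). Rab3c, a GTPase of secretory vesicles, had the smallest p of this list: it was at 9.81, 9.60 and 9.44 in TPC of mice 1127, 920 and 0107 and at 9.24, 8.87 and 8.81 in non-TPC. Its groups did not overlap and its difference was similar in each mouse, 0.57, 0.73 and 0.62, but it did not pass over all genes (difference 0.64, SE 0.17, limma adjusted p = 0.55). Its relative Rab3b differed by 0.10, 0.32 and 1.60 in mice 1127, 920 and 0107, with a mean of 0.67 (limma adjusted p = 0.862). The granule membrane phosphatase-like protein Ptprn2 differed by 0.48 (adjusted p = 0.873) and the priming factor Cadps2 by 0.48 (0.889), and both had their largest value in mouse 0107, 1.24 and 1.02.

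Granule amine transport had 3 measured genes. Cyb561, a cytochrome that passes electrons into the granule for amidation and amine synthesis, differed by 0.28, 0.15 and 1.65 in mice 1127, 920 and 0107 (mean 0.70, limma adjusted p = 0.889). The monoamine transporter Slc18a1 differed by -0.17, 0.52 and 1.44 in the same mice (mean 0.60, adjusted p = 0.873). The lowest array of both genes was the non-TPC array of mouse 0107. Slc18a2 was dim in all arrays, between 3.35 and 3.62.

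The granin-like proteins and inhibitors had 4 measured genes. Vgf, a granin-like precursor, differed by 0.29, -0.16 and 1.18 in mice 1127, 920 and 0107 (mean 0.44, limma adjusted p = 0.912). Pcsk1n, which encodes the convertase inhibitor proSAAS, differed by 0.41 (adjusted p = 0.887). Cartpt, the precursor of the CART peptide, did not follow the split between mice: it was at 7.89, 6.39 and 7.33 in TPC and 8.89, 8.20 and 7.93 in non-TPC of mice 1127, 920 and 0107. Its groups did not overlap, and the difference of -1.14 (SE 0.42) did not pass (limma adjusted p = 0.708). Gnas, whose locus encodes both a granin-like protein and the alpha subunit of a G protein, differed by 0.07 (0.96).

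Of the 12 other processing enzymes, 4 were lower and 2 higher in TPC of all 3 mice (13.8% and 19.7% of all genes). Pcsk5, a convertase made in many tissues, differed by -1.75, -1.04 and -1.72 in mice 1127, 920 and 0107 (mean -1.50, SE 0.46, limma adjusted p = 0.6). Its groups did not overlap, and it lay below the median level of all genes. Ctsl, a lysosomal protease, differed by -0.54 (adjusted p = 0.628), the glutaminyl cyclase relative Qpctl by 0.41 (0.769) and Furin, the convertase of the Golgi, by 0.33 (0.845). Qpct, the secreted glutaminyl cyclase, was named after its values were seen: it differed by -1.41, -1.51 and 0.41 in mice 1127, 920 and 0107. Leaving out the non-TPC array of mouse 0107 made it the single gene of these lists to pass (difference -1.39, SE 0.14, limma adjusted p = 0.0327). In that fit 84 of all 18193 genes passed, against 11 with all arrays.

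The 18 measured peptide precursors, the cargo of the granules, had medians of 0.06, 0.09 and -0.01 in mice 1127, 920 and 0107, and 13 of them lay at or below the median level of all genes. Grp, gastrin-releasing peptide, differed by 1.25, 0.65 and 0.34 in these mice (mean 0.74, limma adjusted p = 0.833), higher in TPC of all 3. Nmu, neuromedin U, differed by 0.34 (adjusted p = 0.788), Npy, neuropeptide Y, by -0.36 (0.769) and Cck, cholecystokinin, by -0.29 (0.882), each dim and with the same sign in all 3 mice. The medians hid larger values of single precursors, named after they were seen. Iapp differed by -0.90, -1.05 and 0.40 and Calcb by -1.13, -0.74 and -0.01 in mice 1127, 920 and 0107. Nts and Vip, both dim, differed by -1.99 and -1.20 in mouse 0107 and by 0.06 to 0.32 in the other mice. The 5 precursors above the median level had a median difference of -0.17, against -0.08 for all 18.

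**Figure D4:**
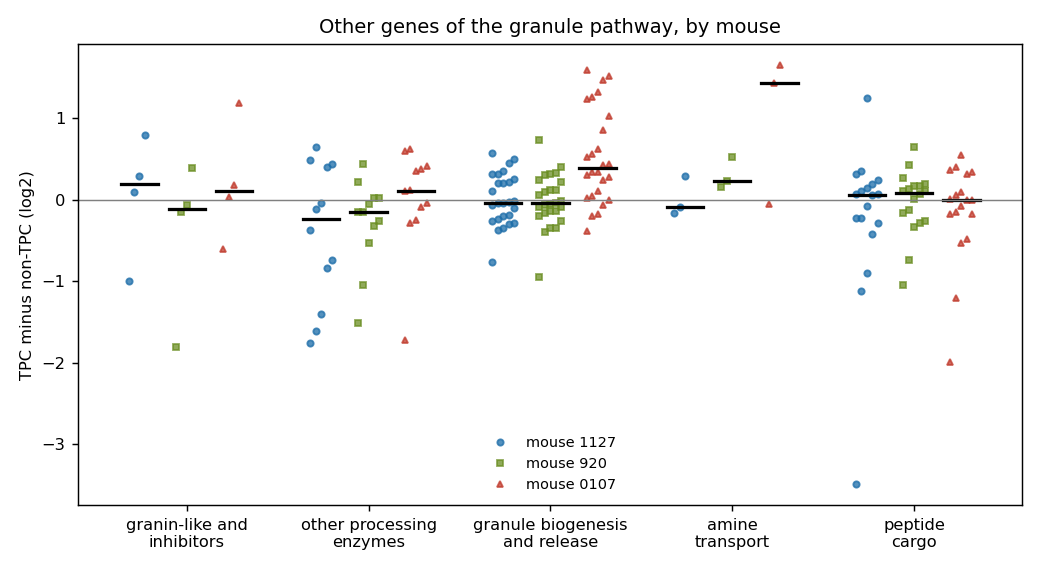
TPC minus non-TPC (log2) of each measured gene in the 5 other lists of the granule pathway, by mouse, with black bars for the median of a list in a mouse. Among genes of granule biogenesis and release the bar of mouse 0107 is at 0.38 and those of mice 1127 and 920 are near 0, while the bars of peptide cargo are near 0 in all mice.

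The genes most like 3 chosen members were ranked by the root mean square distance between levels centred over the 6 arrays, among named genes above the median level. Closest to Chga were Krtap17-1 at 0.20, Hdac11 at 0.26 and the pathway gene Rab3b at 0.27. Closest to Scg2 were Gdap10, Ngly1 and Cdkn2b, each at 0.15, and closest to Pam were Dnajc10 and Synj1, both at 0.04, and Pgghg at 0.05. Among the members themselves, Scg5 was nearest to Resp18 (0.25), Pcsk1 (0.25) and Pam (0.23), Pcsk1 was nearest to Chga (0.44), and Chgb and Cpe were nearest to each other (0.20). Genes with a small range over the arrays have small distances by construction.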

How the data were processed

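RNA of 6 sorted samples was measured on 1-colour Affymetrix arrays. The authors deposited log2 signals per probe set. The submitters' processing notes name RMA, a method of background correction, quantile normalisation and probe summary. The log2 scale was read from the values, 2.70 to 14.81. Versions, the probe set definition file and how a whole-transcript labelling kit was combined with 3′ array annotation are not stated there. The number of arrays limits the precision.

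Of 45101 probe sets, 64 were controls and 34945 had 1 gene symbol, updated through Entrez identifiers to the RefSeq table of GRCm38.p6. The brightest probe set by mean stood for a gene (18193 genes). Fractions and mice were taken from the sample titles. Differences were fitted with limma 3.58.1 in R 4.3.3 (lmFit, eBayes, two-sided) with fraction as the only term, and Benjamini-Hochberg adjustment over all genes, or all 45037 non-control probe sets, at a threshold of 0.05. Both fractions of a mouse come from 1 animal, so mouse numbers pair the samples. Deviations from fraction means correlated at 0.30, 0.46 and 0.36 within mice 1127, 920 and 0107 and at most -0.08 between mice. Within a fraction these deviations cancel out over the mice, so positive correlations within mice push those between mice towards negative values. The procedure was tested on simulated data without mouse pairing. It called 34% of simulated differences of 1 log2 unit and 84% of those of 2. The simulated variances were drawn from the distribution fitted over all genes, and the share called also depends on how many differences were planted. These rates can therefore be too high for members that vary more than most genes. Chga was such a member, as the SD of its mouse differences lay at percentile 96.4 of all genes. The largest mean difference of a member, that of Chga, was 0.83, so the test could miss differences of the size seen here.

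The members and lists were chosen with earlier results of these data known. All members are named, and from each pathway list the members past the threshold and up to 4 with the smallest unadjusted p. Genes most like Chga, Scg2 and Pam were ranked by the root mean square distance of centred levels. Alternatives were the mouse as a fixed or random block, leaving out each mouse and each array, only genes above the median level, an intensity trend, median-centred arrays and the mean of a gene's probe sets.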

Additional observations from a re-analysis of the deposited data

How the results depend on the processing

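No member passed the threshold under any of 15 alternatives, and no member probe set under the 14 that apply to probe sets. The smallest limma adjusted p of a member was 0.134, for Resp18 without the non-TPC array of mouse 0107. Chga kept a positive and Cpe and Resp18 a negative difference under all alternatives run. Leaving out 1 mouse or 1 array turned the sign of the others, none of them called: the differences ranged from -0.0897 to 0.21 for Chgb, -0.20 to 0.17 for Pam, -0.30 to 0.57 for Pcsk1, -0.48 to 0.20 for Scg2, -0.33 to 0.00402 for Scg3 and -0.25 to 0.31 for Scg5. For Chga they ranged from 0.33 to 1.27, for Cpe from -0.33 to -0.15 and for Resp18 from -0.70 to -0.01. Over all genes, 13 passed with mouse as a replicate block against 11 without it, and 39 passed with mouse as a random block. Leaving out mice or arrays gave 0 to 84 genes, and the mean of a gene's probe sets gave 4. For the 63 other pathway genes these leave-outs gave 0 to 1. With the mean of probe sets 0 members, in place of 1, had the same sign in all 3 mice, because the dim second probe set of Cpe entered its mean. The block changed no call of a member or pathway gene. The causes of the other shifts were not tested. Pam has no value when only genes above the median level are used.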
